A study of Homo sapiens with 238 samples.

Results

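The genes described here encode chromatin regulators whose products were mapped at the β-globin enhancer HS2 or belong to the same complexes: SMARCA4 (BRG1) and SMARCA2 (BRM), the alternative ATPases of the BAF remodeling complex, its core subunits SMARCB1, SMARCC1 and SMARCC2, its DNA-binding subunits ARID1A and ARID1B, and the acetyltransferases EP300 (p300) and CREBBP (CBP). They were chosen by name, and all 9 were found among the 62696 genes counted in each of 62 poly(A) RNA-seq libraries. Every library came from K562, an established human erythroleukemia cell line that transcribes fetal and embryonic globin genes. The α series held αWT (8 libraries, unedited), αMut1 (7) and αMut2 (4), single-cell clones with G bases of the G-quadruplex (G4) motif in the α-globin enhancer HS-40 substituted, and αRes1 (8), αRes2 (8), αRes3 (4) and αRes4 (4), clones made from αMut1 cells by placing an unrelated G4 sequence in HS-40. The β series held βWT (4, unedited), βMut1 (4) and βMut2 (4), clones with the G4 motif of HS2 substituted, WT-HS3Δ (4), with the neighboring enhancer HS3 deleted, and βMut-HS3Δ (3), with the HS2 G4 mutated and HS3 deleted. Each edited line is 1 clone, so a difference between lines cannot be told apart from a difference between clones, and p-values measure the spread between libraries of a clone. BRG1 and p300 binding and the proteins themselves were not analysed here.

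BAF complexes use the energy of ATP to slide or evict nucleosomes, and each complex holds either BRG1 or BRM. SMARCB1 and the scaffold proteins SMARCC1 and SMARCC2 make up much of the core, while ARID1A and ARID1B are mutually exclusive subunits that define the canonical form of the complex. p300 and CBP are large paralogous enzymes that acetylate histones at active enhancers and are recruited by erythroid factors such as GATA1. In erythroid cells BRG1 is known to act at the globin locus control region.

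Total counts ran from 4270215 to 48671570 per library, with a median of 27764236.5, and each member had at least 166 reads in each library. Summed over 9 erythroid genes, the marker level was 1750 to 3200 CPM (counts per 1000000) among α libraries and 2130 to 3320 CPM among β libraries, against at most 2.67 CPM for 3 T cell genes and 3.21 CPM for 3 B cell genes. Levels of monocyte (4.06 to 206 CPM, from LYZ for the most part), fibroblast (1.39 to 56.5 CPM) and epithelial genes (27.3 to 159 CPM, from EPCAM for the most part) varied more, and their part in the results was not tested. CD8A, MS4A1 and KRT5 were at or near 0. Reads of 6 pseudoautosomal genes were handled in another way in 16 libraries (at least 4502 counts summed) than in the other 46 (at most 1), namely in all of αRes3 and αRes4 and in those numbered 5 to 8 of αRes1 and αRes2, so that for αRes3 and αRes4 against αWT or αMut1 a difference in alignment cannot be told apart from the edit. The same holds for αRes1 and αRes2 where libraries numbered 5 to 8 alone are compared. The βWT library numbered 1 stood apart: each of the 9 members was higher in it than in the other βWT libraries, by 1.06 to 2.12 times. Counts of members in βMut1, βMut2 and WT-HS3Δ against βWT are given with and without it. Calls described for single members are marked where they were lost without it. Other values that use βWT include it unless stated.

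Levels are CPM on a common scaling (TMM) of the 62 libraries, and levels of different genes are compared per kilobase of merged exon (RPKM). In bulk libraries fewer cells of a state and less RNA per cell cannot be told apart. On this scale SMARCC1 was highest in αWT at 62.5 ± 8.5 RPKM (SD, n = 8), followed by SMARCA4 at 31.0 ± 2.28, SMARCC2 at 19.6 ± 1.59 and ARID1A at 17.9 ± 1.08. EP300 (9.99 ± 0.66 RPKM), CREBBP (7.00 ± 0.56), SMARCB1 (6.98 ± 0.33), ARID1B (3.16 ± 0.20) and SMARCA2 (2.62 ± 0.34) were lower. SMARCC1 led in each of the 12 lines, and the lowest was SMARCA2 or ARID1B. The order depends on the length used: per kilobase of the canonical transcript SMARCA4 led in αWT (86.6 RPKM), because the merged exons of SMARCA4 span 15.6 kb and its canonical transcript 5.58 kb.

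Each member was compared in 17 pairs of lines with edgeR's quasi-likelihood test, with p-values adjusted over all genes tested, and an adjusted p below 0.05 counted as past the test. Of the 153 comparisons, 76 passed, 26 with the member higher and 50 with it lower in the line named first. CREBBP passed most often (3 higher, 9 lower) and ARID1A least often (4 lower). Many other genes passed too. Over the 17 comparisons, 1.57% to 33.2% of all tested genes were higher and 3.48% to 37.2% lower. The totals above therefore do not show change particular to the members. Counts of members per comparison are given beside the share of all tested genes that passed in the same direction.

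With all libraries, few members differed between the lines with the HS-40 G4 mutated and αWT. In αMut1, 1 member was higher and 2 were lower than in αWT, where 21.8% of 18247 genes were higher and 21.6% lower. In αMut2 edgeR called 0 members, with 1 at an unadjusted p below 0.05 and 1 called by DESeq2, against 11.6% of genes higher and 13% lower. With all libraries, neither count stands above these shares. αMut2 has only libraries numbered 1 to 4. With these numbers alone 3 members were lower than in αWT, where 13.9% of genes were higher and 15.5% lower. By edgeR they were SMARCA2 (-0.204 ± 0.06, adjusted p = 0.00984), SMARCC1 (-0.218 ± 0.076, adjusted p = 0.0305) and ARID1B (-0.205 ± 0.074, adjusted p = 0.0371).

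The αRes clones gave unlike counts. Against αWT, αRes1 had 3 members higher and 1 lower (all genes 21.1% and 18.6%), αRes2 had 2 and 2 (19.3% and 19.3%), and αRes3 had 3 and 2 (27% and 29.1%). αRes4 stood apart with 7 members lower, where 29.2% of genes were higher and 29.2% lower. Of 3301 coding genes with canonical transcripts of at least 5000 bases, as in all members, 41.74% were lower and 24.45% higher. The median member change in αRes4 was -0.49 on the log2 scale, against 0.01 over all genes.

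Against αMut1, the line they were made from, αRes1 and αRes2 had 0 members past edgeR's test, with 5 and 0 at an unadjusted p below 0.05 and 0 by DESeq2 in either. Of all genes, 1.57% were higher and 3.48% lower in αRes1, and 8.37% higher and 10.5% lower in αRes2. αRes3 had 4 members higher and 1 lower than αMut1 (15.9% and 15.6%), and αRes4 had 8 lower (24.7% of genes higher, 24.6% lower). Of the coding genes with canonical transcripts of at least 5000 bases, 40.29% were lower and 15.75% higher in αRes4.

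Against βWT, the members that passed were lower in βMut1 and βMut2 and mostly higher in WT-HS3Δ. βMut1 had 6 members lower than βWT, where 23.8% of 17535 genes were higher and 21% lower, and βMut2 had 7 lower (27.1% and 26.3%). WT-HS3Δ had 5 members higher and 1 lower (33.2% and 36.2%). βMut-HS3Δ, which carries both edits, had 1 higher and 1 lower than βWT (32.1% and 33.3%), 1 higher and 5 lower than WT-HS3Δ (15.5% and 15.6%), and 6 higher and 1 lower than βMut1 (32.6% and 37.2%). These comparisons share lines, so they are not independent of each other. All members have canonical transcripts of at least 5000 bases. Of 3126 coding genes that long, 40.15% were lower and 11.58% higher in βMut1 than in βWT. The shares were 49.1% lower and 10.78% higher in βMut2, and 41.62% lower and 28.53% higher in WT-HS3Δ.

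The counts against βWT rest in part on its library numbered 1. Without it, 0 members passed in βMut1 (edgeR, with 3 at an unadjusted p below 0.05; DESeq2 was run with all libraries only, where it called 6), against 17.6% of all genes higher and 15.4% lower. In the same setting 4 were lower in βMut2 (23.8% and 22.5%), and 7 were higher and 1 lower in WT-HS3Δ (33.4% and 35.9%). With libraries numbered 2 to 4 alone, in all lines of the series, 7 members were lower in βMut1 (32.3% and 28.7%), 7 lower in βMut2 (31.7% and 32.6%), and 7 higher and 1 lower in WT-HS3Δ (39.4% and 36.6%). In βMut1 and βMut-HS3Δ too, the library numbered 1 was the highest for each of the 9 members. Without the βMut1 library numbered 3, 0 members passed in βMut1 against βWT (edgeR, 6 at an unadjusted p below 0.05), where 14.0% of all genes were higher and 13.7% lower. Without that numbered 2, 2 did (18.3% and 15.6%). βMut-HS3Δ against WT-HS3Δ had 1 or 2 members past the test without any of 4 single libraries. It had 2 without the WT-HS3Δ library numbered 1 (all genes 10.7% and 10.7%) or 4 (11.2% and 12.1%). It had 1 without the βMut-HS3Δ library numbered 2 (9.82% and 8.18%) or 3 (8.28% and 8.26%), so the shares of all genes fell as well. Against βMut1, βMut-HS3Δ had 2 without its own library numbered 1 (30.3% and 34.7%). It had 4 without the βMut1 library numbered 2 (30.7% and 35.6%) or 3 (31.2% and 34.9%). With libraries numbered 2 to 4 alone, βMut-HS3Δ had 1 member higher and 8 lower than WT-HS3Δ (all genes 23.7% and 30.0%). In that setting it had 7 higher and 1 lower than βMut1 (36.2% and 39.9%).

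EP300 and CREBBP gave the widest range over lines. EP300 lies at chr22:41092592-41180077 (hg38, plus strand) and CREBBP at chr16:3725054-3880713 (minus strand). The 250 bases before the start of the canonical transcript of each are shown because their levels parted in the α series. The capitals mark 4 runs of at least GGG separated by 1 to 7 bases, a letter pattern of possible G4s, searched on both strands and seen here on the strand opposite to the gene, as runs of C. CREBBP has it at these letters and EP300 does not, and 23.5% of 35116 RefSeq promoter windows of this length have it on either strand (GRCh38.p14). Of the 7 members with such a window, 3 have it, namely CREBBP, ARID1A and ARID1B. The EP300 window (chr22:41092342-41092591) includes 54 bases of the microRNA gene MIR1281, and the CREBBP window (chr16:3880714-3880963) overlaps no annotated gene.
EP300: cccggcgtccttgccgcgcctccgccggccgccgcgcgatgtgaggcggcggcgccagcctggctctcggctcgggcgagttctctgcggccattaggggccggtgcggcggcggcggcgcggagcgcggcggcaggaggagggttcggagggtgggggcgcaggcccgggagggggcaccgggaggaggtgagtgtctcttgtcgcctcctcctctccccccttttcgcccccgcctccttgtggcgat
CREBBP: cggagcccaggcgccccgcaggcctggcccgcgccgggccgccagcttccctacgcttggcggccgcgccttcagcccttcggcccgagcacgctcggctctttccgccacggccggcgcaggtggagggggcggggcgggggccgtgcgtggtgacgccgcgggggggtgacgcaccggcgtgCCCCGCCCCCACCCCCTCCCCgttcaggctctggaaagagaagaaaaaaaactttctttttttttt

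EP300 in αWT ranged from 105 to 123 CPM with a median of 121, and in αMut1 from 113 to 175 with a median of 136. The ranges overlapped, and the log2 change of 0.21 ± 0.10 (SE) did not pass the test (adjusted p = 0.0866). In αRes1, at 123 to 186 CPM (median 162), EP300 lay above αWT in every library and rose by 0.41 ± 0.10 (adjusted p = 0.00101, edgeR). In αRes3 the libraries gave 193, 179, 189 and 195 CPM, the highest mean of the 12 lines, and EP300 rose by 0.66 ± 0.12 (adjusted p = 9.36e-06). αRes2 also passed (0.29 ± 0.10, adjusted p = 0.0197), from 98.1 to 195 CPM with a median of 148. That call was lost without the αRes2 library numbered 5 or that numbered 7 and with libraries numbered 1 to 4 alone, where the change was -0.02. αRes4, at 108, 96.2, 110 and 122 CPM, and αMut2, at 127, 108, 113 and 124 CPM, overlapped αWT.

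CREBBP was lower than in αWT in several α lines. It ranged from 88.5 to 117 CPM in αWT (median 109) and from 64.2 to 102 CPM in αMut1 (median 74.9), a fall of 0.48 ± 0.10 on the log2 scale (adjusted p = 7.86e-05). The fall was 0.30 ± 0.09 in αRes1 (adjusted p = 0.00813, not past the test with libraries numbered 5 to 8 alone) and 0.51 ± 0.09 in αRes2 (adjusted p = 2.76e-05), while αRes3, at 107, 102, 115 and 112 CPM, sat within αWT (log2 change -0.03 ± 0.11). αRes4 had the lowest level of the series, at 57.1, 46.2, 56.2 and 63.2 CPM, all below αWT (-0.998 ± 0.12, adjusted p = 3.74e-09). The 4 αMut2 libraries fell between 98.9 and 101 CPM, inside the αWT range.

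The ratio of the acetyltransferase genes split the α lines without overlap. Per kilobase, EP300 was 1.43 times CREBBP in αWT, with a log2 ratio of 0.51 ± 0.09 (SD, n = 8) and a range of 0.37 to 0.65. In αMut1 the ratio was 1.22 ± 0.12 (n = 7), and in the αRes clones it lay between 1.20 and 1.38. Every library of αMut1 and of αRes1 to αRes4 was above every αWT library, the lowest being 1.05 in αMut1, whereas αMut2 (0.65 ± 0.10, n = 4) overlapped αWT. In the β series βMut2 stood above βWT, at 0.77 ± 0.09 against 0.23 ± 0.03 (n = 4 each), with no overlap, and βMut-HS3Δ lay just below it at 0.161 ± 0.004 (n = 3). Ratios are given as a description, without a test.

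Both acetyltransferase genes were lower in βWT than in αWT. EP300 was at 71.4, 33.3, 35.1 and 32.9 CPM in the βWT libraries, all below αWT, a log2 difference of -1.45 ± 0.18 (adjusted p = 7.8e-06), and CREBBP at 80.6, 38.0, 38.2 and 37.9 CPM (-1.17 ± 0.18, adjusted p = 6.02e-05). Of the members, 6 were lower in βWT than in αWT, where 32.6% of 18196 genes were higher and 33.4% lower. Without the βWT library numbered 1, 7 were lower (all genes 32.7% higher, 33.0% lower). EP300 was then at -1.80 ± 0.07 (edgeR, adjusted p = 8.36e-10) and CREBBP at -1.52 ± 0.08 (adjusted p = 6.18e-09). The line and the series cannot be told apart in this comparison.

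Within the β series, EP300 was at 30.8, 27.2, 26.5 and 29.9 CPM in βMut1, below every βWT library (-0.60 ± 0.21, adjusted p = 0.0302), and at 29.4, 34.2, 34.2 and 29.0 CPM in βMut2 (-0.46 ± 0.21, adjusted p = 0.075). With the βWT library numbered 1 left out neither passed, and the βMut1 call was also lost without its own library numbered 2 or 3. With libraries numbered 2 to 4 alone, EP300 passed in βMut1 (edgeR, -0.28 ± 0.11, adjusted p = 0.0396) and not in βMut2 (-0.09 ± 0.11). It rose in WT-HS3Δ, at 69.0, 52.2, 51.2 and 75.7 CPM (0.60 ± 0.21, adjusted p = 0.0155, lost without the WT-HS3Δ library numbered 4 or any of the βWT libraries numbered 2 to 4), and was at 51.1, 38.8 and 33.7 CPM in βMut-HS3Δ (-0.04 ± 0.23 against βWT). βMut-HS3Δ lay below every WT-HS3Δ library (-0.64 ± 0.23, adjusted p = 0.0397), a call lost without any of the 4 libraries named above for that pair of lines.

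CREBBP had its lowest level of all lines in βMut2, at 23.5, 24.4, 26.3 and 24.0 CPM, and fell by 1.00 ± 0.21 from βWT (adjusted p = 0.000816), a call that held under each alternative tried. βMut1, at 36.1, 29.7, 25.7 and 29.8 CPM, was also below every βWT library (-0.69 ± 0.21, adjusted p = 0.0157), but that call was lost without the βWT library numbered 1 or the βMut1 library numbered 3. It passed with libraries numbered 2 to 4 alone (edgeR, -0.42 ± 0.10, adjusted p = 0.000966). WT-HS3Δ, at 80.3, 63.3, 59.4 and 83.8 CPM, overlapped βWT only through the βWT library numbered 1 and rose by 0.64 ± 0.21 (adjusted p = 0.0108). βMut-HS3Δ, at 60.4, 46.1 and 39.7 CPM, differed from βWT by 0.03 ± 0.23.

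The ATPase genes did not move together. SMARCA4 (chr19:10960932-11079426, plus strand) was at 444 to 533 CPM in αWT (median 468) and 381 to 581 CPM in αMut1 (median 444), which overlapped (-0.05 ± 0.09, adjusted p = 0.694). It was highest in αRes3, at 554, 594, 596 and 572 CPM, all above αWT, yet the change of 0.23 ± 0.11 did not pass (adjusted p = 0.0664). With libraries numbered 1 to 4 alone, the only numbers of αRes3, SMARCA4 passed (edgeR, 0.31 ± 0.09, adjusted p = 0.00241). In αRes4 it fell by 0.49 ± 0.11 (adjusted p = 0.000289), to 315, 289, 382 and 428 CPM. SMARCA4 was lowest in βMut1, at 264, 176, 181 and 210 CPM, against 449, 255, 245 and 265 CPM in βWT (-0.55 ± 0.19, adjusted p = 0.023), and βMut2, at 254, 201, 217 and 213 CPM, passed too (-0.47 ± 0.18, adjusted p = 0.0406). Both calls were lost without the βWT library numbered 1, that in βMut1 also without its own library numbered 2 or 3, and that in βMut2 also without any of its own numbered 2 to 4. With libraries numbered 2 to 4 alone, in all lines of the series, both passed by edgeR. The changes were -0.43 ± 0.08 in βMut1 (adjusted p = 0.000126) and -0.31 ± 0.08 in βMut2 (adjusted p = 0.00282).

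SMARCA4 was higher in WT-HS3Δ than in βWT. The WT-HS3Δ libraries gave 514, 397, 485 and 529 CPM, and 3 of the 4 were above every βWT library (0.75 ± 0.19, adjusted p = 0.00146), a call that held under each alternative. βMut-HS3Δ, at 361, 278 and 239 CPM, lay below each WT-HS3Δ library (-0.77 ± 0.20, adjusted p = 0.00826) and overlapped βWT (-0.02 ± 0.20). The call against WT-HS3Δ was lost without the βMut-HS3Δ library numbered 3.

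SMARCA2 (chr9:1980290-2193624, plus strand), the alternative ATPase, fell with all libraries in αRes2, αRes3 and WT-HS3Δ, where SMARCA4 did not fall. In αRes1 it did not pass with all libraries (-0.20 ± 0.09, adjusted p = 0.0683), and the sets went opposite ways by edgeR. It fell with numbers 1 to 4 alone (-0.68 ± 0.06, adjusted p = 2.18e-10). It rose with 5 to 8 alone (0.26 ± 0.05, adjusted p = 0.000192), where a difference in alignment cannot be told apart from the edit. In αRes2 it ranged from 36.3 to 46.1 CPM with a median of 39.0 (-0.34 ± 0.09, adjusted p = 0.00246), a call that was lost with numbers 5 to 8 alone. It was at 42.3 to 57.8 CPM in αWT (median 50.0), 28.7, 29.3, 31.5 and 27.4 CPM in αRes3 (-0.80 ± 0.11, adjusted p = 1.26e-07) and 22.1, 20.3, 23.0 and 25.4 CPM in αRes4 (-1.17 ± 0.12, adjusted p = 3.76e-11). The αRes3 and αRes4 libraries lay below all those of αWT and αMut1. In the β series SMARCA2 was at 72.5, 50.7, 47.5 and 48.4 CPM in βWT and 35.0, 29.5, 30.2 and 34.9 CPM in WT-HS3Δ (-0.68 ± 0.16, adjusted p = 0.00087). It was at 35.9, 26.8, 29.4 and 31.0 CPM in βMut2 (-0.84 ± 0.16, adjusted p = 0.000266), again with no overlap, while βMut1, at 57.0, 40.9, 34.4 and 42.3 CPM, did not pass (-0.33 ± 0.16, adjusted p = 0.0913). With libraries numbered 2 to 4 alone, SMARCA2 passed in βMut1 (edgeR, -0.32 ± 0.08, adjusted p = 0.00138).

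The difference between G4-mutated and unmutated HS2 was not the same with and without HS3 for SMARCA2. βMut-HS3Δ, at 56.5, 46.7 and 42.03 CPM, was above every WT-HS3Δ library (0.53 ± 0.17, adjusted p = 0.0249, lost without any of 4 single libraries), while βMut1 was not above βWT. The difference between these effects was 0.86 ± 0.23 on the log2 scale (adjusted p = 0.0143), and it passed under each alternative tried. This test was added after the data were seen, and 9.04% of 17535 genes passed it as higher and 8.47% as lower. No other member passed with all libraries. Without the βWT library numbered 1, ARID1A (-0.56 ± 0.18, adjusted p = 0.0318) and SMARCC2 (-0.54 ± 0.18, adjusted p = 0.0465) did, where 9.97% of all genes were higher and 10.9% lower. With libraries numbered 2 to 4 alone 1 member was higher and 4 were lower (all genes 14.0% and 19.8%).

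The ratio of the ATPase genes gives both in each library. SMARCA4 per kilobase was 11.9 times SMARCA2 in αWT and 6.66 times in βWT. The log2 ratio was 3.57 ± 0.27 (SD, n = 8) in αWT, 4.60 ± 0.06 in αRes3 and 4.24 ± 0.13 in αRes4 (n = 4 each), both without overlap with αWT. In the β series it was 2.74 ± 0.14 in βWT, 3.14 ± 0.06 in βMut2, 4.18 ± 0.11 in WT-HS3Δ (n = 4 each) and 2.88 ± 0.09 in βMut-HS3Δ (n = 3), so that WT-HS3Δ stood 1.45 above βWT and βMut-HS3Δ overlapped it.

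SMARCB1 (chr22:23786931-23838009, plus strand) had the narrowest range of the members, with the highest line mean 1.73 times the lowest. It was at 108 to 123 CPM in αWT (median 116) and 89.4, 81.0, 99.9 and 102 CPM in αRes4 (-0.35 ± 0.07, adjusted p = 3.83e-05). The 2 lines without HS3 had the highest means. WT-HS3Δ gave 145, 146, 149 and 137 CPM and βMut-HS3Δ 135, 123 and 127 CPM, all above βWT at 104, 97.7, 94.5 and 102 CPM. The rises of 0.61 ± 0.09 (adjusted p = 8.17e-06) and 0.39 ± 0.10 (adjusted p = 0.00183) held under each alternative, as did the rise in βMut-HS3Δ against βMut1 (0.65 ± 0.10, adjusted p = 9.08e-06). SMARCB1 shares 2923 exon bases with DERL3 on the opposite strand, and how reads in both were counted is not stated.

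The scaffold genes passed in opposite directions in αMut1 with all libraries, but not within either set of replicate numbers. SMARCC1 (chr3:47585269-47782106, minus strand) was at 348 to 540 CPM in αWT (median 490) and 393 to 434 CPM in αMut1 (median 411), a fall of 0.24 ± 0.08 (adjusted p = 0.00899) that did not pass with libraries numbered 5 to 8 alone. It fell most in αRes4, to 249, 200, 287 and 304 CPM (-0.91 ± 0.09, adjusted p = 9.03e-11), below every αWT library. SMARCC2 (chr12:56162359-56189567, minus strand) instead rose, from 158 to 201 CPM in αWT (median 177) to 188 to 250 CPM in αMut1 (median 224; 0.26 ± 0.09, adjusted p = 0.0209), 195 to 304 CPM in αRes1 (median 254; 0.45 ± 0.09, adjusted p = 8.28e-05) and 265, 263, 263 and 272 CPM in αRes3 (0.53 ± 0.11, adjusted p = 6.51e-05). In αMut1 and αRes1 the SMARCC2 call was lost with libraries numbered 1 to 4 alone, and in αMut1 also without the library numbered 5. SMARCC2 shares 719 exon bases on the opposite strand, with MYL6 among the genes concerned, so its level is uncertain to that extent.

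In the β lines SMARCC1 was at 544, 411, 387 and 416 CPM in βWT and fell in βMut1 to 402, 273, 230 and 272 CPM (-0.58 ± 0.18, adjusted p = 0.0134) and in βMut2 to 377, 248, 262 and 255 CPM (-0.63 ± 0.18, adjusted p = 0.00561). Only the βMut2 call held without the βWT library numbered 1, and the βMut1 call was also lost without its own library numbered 3. With libraries numbered 2 to 4 alone both passed by edgeR. The changes were -0.65 ± 0.08 in βMut1 (adjusted p = 2.72e-07) and -0.70 ± 0.08 in βMut2 (adjusted p = 5.11e-08). SMARCC2, at 234, 154, 146 and 158 CPM in βWT, fell in βMut2 to 131, 101, 107 and 112 CPM (-0.63 ± 0.15, adjusted p = 0.00201) and in βMut-HS3Δ to 114, 88.3 and 83.5 CPM (-0.83 ± 0.17, adjusted p = 0.000209). Both lines lay below every βWT library. The log2 ratio of SMARCC1 to SMARCC2 was 1.63 ± 0.10 in βWT, 2.24 ± 0.06 in WT-HS3Δ (SD, n = 4 each) and 2.35 ± 0.09 in βMut-HS3Δ (n = 3), and 1.66 ± 0.18 in αWT (n = 8) against 0.88 ± 0.05 in αRes3 and 0.76 ± 0.25 in αRes4 (n = 4 each). It was also lower in βMut1 (1.17 ± 0.18, n = 4), and none of these lines overlapped its unedited line.

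ARID1A (chr1:26693236-26782104, plus strand) was higher in the α than in the β series in almost all libraries. It ranged from 259 to 303 CPM in αWT (median 292) and was at 230, 110, 119 and 117 CPM in βWT, all below αWT (-0.9997 ± 0.17, adjusted p = 0.000108). With all libraries of the α series it passed against αWT in αRes4 alone, at 225, 213, 225 and 252 CPM (-0.35 ± 0.09, adjusted p = 0.00116). Within a set it also passed in αRes2 with numbers 1 to 4 (-0.31 ± 0.08, adjusted p = 0.00111) and in αMut1 with numbers 5 to 8 (-0.20 ± 0.07, adjusted p = 0.018). It fell in βMut2, to 89.7, 107, 108 and 95.1 CPM (-0.54 ± 0.19, adjusted p = 0.0225), a call that was lost without the βWT library numbered 1 and with libraries numbered 2 to 4 alone.

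ARID1B (chr6:156776020-157210779, plus strand) rose in αRes1 and αRes3 and fell in αRes4. It was at 130 to 155 CPM in αWT (median 149), 177, 180, 197 and 184 CPM in αRes3 (0.31 ± 0.08, adjusted p = 0.00118) and 93.7, 79.3, 96.1 and 102 CPM in αRes4 (-0.69 ± 0.08, adjusted p = 8.3e-09), neither of which overlapped αWT. In βWT it was at 119, 79.7, 77.6 and 82.0 CPM, and in βMut1 at 86.7, 57.4, 57.5 and 62.1 CPM (-0.44 ± 0.15, adjusted p = 0.027), a call lost without the βWT library numbered 1 or any of the βMut1 libraries numbered 2 to 4. With libraries numbered 2 to 4 alone, ARID1B passed in βMut1 (edgeR, -0.44 ± 0.07, adjusted p = 2.18e-05). The log2 ratio of ARID1A to ARID1B per kilobase was 2.50 ± 0.04 in αWT (SD, n = 8), and it was higher without overlap in αMut2 (2.84 ± 0.07) and αRes4 (2.83 ± 0.09) and lower in αRes3 (2.28 ± 0.03, n = 4 each).

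Over the 12 lines the order of the levels was broken by few gaps. Of 11 pairs of neighbors in the order of line means, 9 to 11 overlapped in their libraries, depending on the gene. EP300 ran from βMut1 (28.6 ± 2.06 CPM, SD, n = 4) through βMut2, βMut-HS3Δ, βWT and WT-HS3Δ (62.01 ± 12.2, n = 4), then after its only gap αRes4 (109 ± 10.4, n = 4), αWT, αMut2, αMut1, αRes2, αRes1 and αRes3 (189 ± 7.42, n = 4), a 6.61-fold range of means. CREBBP ran from βMut2 (24.5 ± 1.24 CPM) over βMut1 to βWT, with a gap below βWT, and up to αRes3 (109 ± 5.40, n = 4 each), a 4.44-fold range. SMARCA4 spanned 2.79-fold from βMut1 to αRes3 with a gap between αRes4 and αMut2, and SMARCC1, from αRes4 to WT-HS3Δ, had no gap.

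Libraries of the same line numbered 1 to 4 and 5 to 8 also differed, in the 4 α lines that have both. In αMut1, SMARCA4 was at 381 to 444 CPM in the first set and 563 to 581 CPM in the second, and 6 members were higher in the second set without overlap, where 29.2% of 18247 genes were higher and 30% lower without overlap. The count was 5 higher in αRes2 (all genes 15.7% higher, 16.1% lower), 3 higher and 1 lower in αRes1 (31.4% and 27.5%), and 3 lower in αWT (26% and 28.3%). SMARCA2 was at 33.2 to 36.2 CPM in the first αRes1 set and 51.7 to 54.7 CPM in the second. In αRes1 and αRes2 the sets also differ in the handling of pseudoautosomal reads, which cannot be told apart from the set.

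Comparisons within a set differed from the pooled ones. CREBBP fell in αMut1 by 0.71 ± 0.08 in libraries numbered 1 to 4 (adjusted p = 2.31e-09), and in those numbered 5 to 8 the change was -0.19 ± 0.08 (adjusted p = 0.0588). EP300 was 0.33 ± 0.08 higher in αMut1 in the second set (adjusted p = 0.00203) and did not pass in the first (0.15 ± 0.09). Members past the test in αMut1 were 3 lower in the first set (all genes 29.7% higher, 29.5% lower), and 3 higher and 1 lower in the second (27.7% and 26.1%). In αRes2 against αWT they were 5 lower in the first set (26.6% and 26.4%), and 4 higher and 1 lower in the second (28.5% and 28.7%). In αRes1 against αMut1 the sets gave 4 higher and 1 lower (all genes 26.1% and 28.8%), and 4 higher (24.1% and 22.6%), where the pooled libraries gave 0. In the second set αRes1 and αRes2 also differ from αWT and αMut1 in the handling of pseudoautosomal reads. This cannot be told apart from the edit. The EP300 to CREBBP ratio is formed within a library, and in αMut1, αRes1 and αRes2 all libraries of both sets lay above every αWT library.

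Genes around a member were compared with it, as the median change of the tested genes that start within 5 Mb. CREBBP lies on the short arm of chromosome 16, as does HS-40. The 187 genes around it had a median log2 change of -0.57 in αMut1 against αWT, with 133 lower and 10 higher, beside -0.48 for CREBBP. In αMut2 the neighbors were at -0.49 (113 lower, 1 higher) while CREBBP was at -0.12, and in αRes3 they were at -0.48 while CREBBP was at -0.03. In αRes1, αRes2 and αRes4 the neighbors were at -0.43, -0.54 and -0.44, beside -0.30, -0.51 and -0.998 for CREBBP. CREBBP thus fell with its neighborhood in some clones, stayed within the αWT range while the neighborhood fell in αMut2 and αRes3, and was below it in αRes4.

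The genes around SMARCC2 were higher in the α lines. The 162 genes around it had medians of 0.28 in αMut1, 0.23 in αMut2, αRes1 and αRes2, 0.33 in αRes3 and 0.24 in αRes4, all against αWT, beside changes of -0.02 to 0.53 for SMARCC2. Around ARID1A the 140 genes had medians of -0.17 to -0.28 in αMut1, αRes1, αRes2 and αRes3. For SMARCA4, SMARCA2, SMARCC1, EP300, SMARCB1 and ARID1B the neighbors' medians in the α series against αWT stayed between -0.13 and 0.19, also in αRes4, where 5 of these 6 genes were past the test. Of the β comparisons with βWT, the neighbors of CREBBP stood out at 0.44 in WT-HS3Δ and 0.32 in βMut-HS3Δ. In βWT against αWT the 193 genes around CREBBP had a median of -0.49 (114 lower, 25 higher), beside -1.17 for CREBBP. The medians around the other members lay between -0.24 and 0.12 there, with 0.009 around EP300, beside -1.45 for EP300. The part of the surroundings in the change of a member was not tested.

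**Figure D1:**
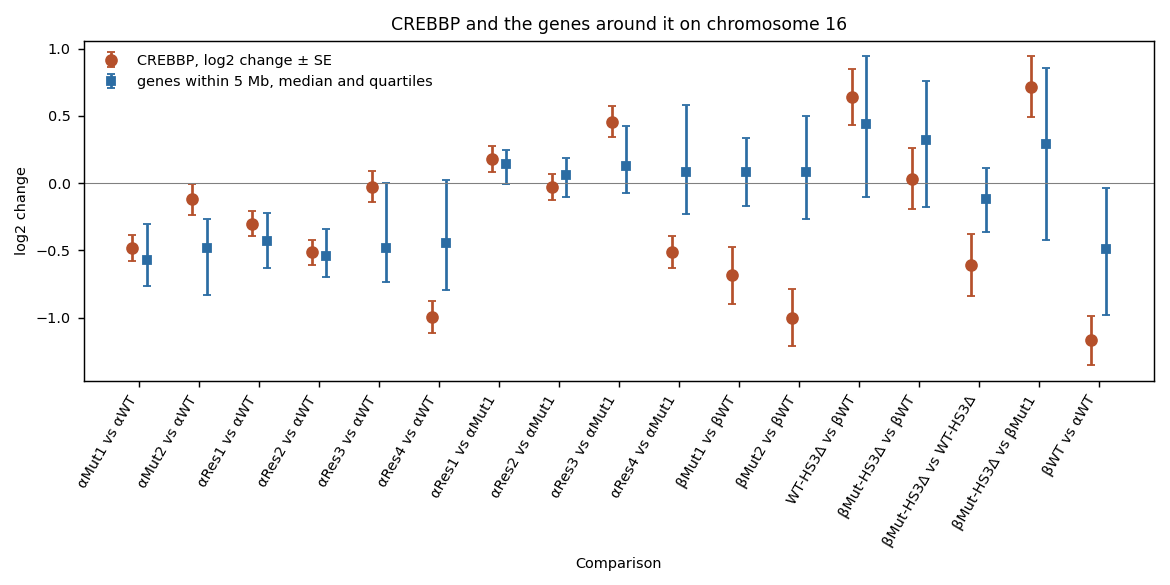
log2 change of CREBBP (orange circles, bars are SE) and median log2 change of the tested genes that start within 5 Mb of it (blue squares, bars are quartiles) on the y axis, for the 17 comparisons on the x axis. The neighbors lie between -0.57 and -0.43 in the 6 comparisons with αWT within the α series, whereas CREBBP ranges from -0.998 to -0.03.

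All members have long transcripts, and libraries differed in how strongly long transcripts were represented. Among protein-coding genes, 2898 with a canonical transcript of at least 5000 bases were set against 2603 of under 2000 bases, as the difference of their median log2 levels relative to the mean of all libraries. This difference was -0.10 to 0.35 in αWT, -0.16 to 0.01 in αRes4, -0.27 to 0.14 in βWT, where 0.14 belongs to the library numbered 1, and -0.77 to -0.36 in βMut-HS3Δ. The medians moved with the members in several comparisons (3301 long and 3053 short genes were tested for α lines, 3126 and 3009 for β lines). In αRes4 against αWT the median change was -0.15 for long and 0.09 for short genes, in βMut1 against βWT -0.21 and 0.16, and in βMut2 -0.28 and 0.21. In WT-HS3Δ the medians were -0.11 for long and 0.04 for short genes, while 5 members rose. Over the 19 β libraries Pearson's r between this difference and the log2 level ran from 0.30 for SMARCB1 to 0.82 for SMARCC2, and over the 43 α libraries from 0.31 for SMARCA4 to 0.62 for SMARCC1 (libraries of a line share a clone). The mitochondrial share of counts in αRes4 was 1.94% to 5.24%, against 0.913% to 1.94% in αWT. The part of transcript length and of mitochondrial RNA in the results was not tested.

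Other subunits of BAF-type complexes were mostly higher in WT-HS3Δ than in βWT. Of 24 listed genes for further subunits, 21 were tested, and 18 of them were higher and 1 lower in WT-HS3Δ than in βWT, where 33.2% of all genes were higher and 36.2% lower, with a median of 0.44 against -0.03 over all genes. In βMut-HS3Δ 12 were higher and 1 lower than in βWT (all genes 32.1% and 33.3%), and 17 higher and 1 lower than in βMut1 (32.6% and 37.2%). SMARCD3, a BAF60 subunit, rose by 1.75 ± 0.12 (adjusted p = 2.23e-10) in WT-HS3Δ and 2.80 ± 0.12 (adjusted p = 4.34e-13) in βMut-HS3Δ against βWT, and BCL7B by 0.88 ± 0.05 (adjusted p = 3.99e-11) and 0.85 ± 0.06 (adjusted p = 2.09e-10). Neither rise was limited to lines without HS3, as SMARCD3 rose by 1.46 ± 0.12 in βMut1 (adjusted p = 8.18e-08) and BCL7B by 0.32 ± 0.05 in βMut2 (adjusted p = 8.48e-05). Against βWT the list gave 2 higher and 7 lower in βMut1 (23.8% and 21%), and 5 higher and 7 lower in βMut2 (27.1% and 26.3%). In αRes4 against αWT 3 were higher and 13 lower (29.2% and 29.2%, list median -0.51), led by PHF10, a subunit of PBAF, which fell by 0.91 ± 0.07 (adjusted p = 1.01e-13). This list and those below were compared with all libraries only, the βWT library numbered 1 included. They are set against all genes, and the transcript lengths of the listed genes were not compared. Coding genes with canonical transcripts of at least 5000 bases were lower more often than all genes. Their shares were 40.15% in βMut1 and 49.1% in βMut2 against βWT, and 41.74% in αRes4 against αWT.

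Of 20 listed acetyltransferases and partners of p300 and CBP, 14 were lower and 1 was higher in βMut2 than in βWT (all genes 26.3% and 27.1%), and 10 were lower and 2 higher in βMut1 (21% and 23.8%). NCOA3, a nuclear receptor coactivator, fell by 0.81 ± 0.11 in βMut2 (adjusted p = 7.38e-06) and by 1.43 ± 0.12 in βMut-HS3Δ (adjusted p = 4.99e-09). In αRes3 11 were higher and 2 lower than in αWT (27% and 29.1%), with KAT2B (PCAF) up by 1.10 ± 0.10 (adjusted p = 2.14e-12) and CITED4, which binds p300 and CBP, up by 2.68 ± 0.35 (adjusted p = 2.48e-08). KAT2B also rose in αMut1, αRes1, αRes2 and αRes4 (by 0.57 to 0.90), and CITED4 in αRes1 (by 2.36) and αRes2 (by 1.79). WT-HS3Δ had 7 higher and 5 lower than βWT (33.2% and 36.2%), and KAT2A (GCN5) rose by 1.60 ± 0.10 there (adjusted p = 5.38e-11) and by 1.20 ± 0.11 in βMut-HS3Δ (adjusted p = 8.63e-09). In βWT against αWT the list gave 3 higher and 13 lower (32.6% and 33.4%).

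Of 15 listed ATPases of other remodelers, 10 were lower in βMut1 and 8 in βMut2 than in βWT, where 21% and 26.3% of all genes were lower. SMARCA1, an ISWI ATPase, fell by 1.89 ± 0.18 in βMut1 (adjusted p = 4.65e-07) and 1.57 ± 0.18 in WT-HS3Δ (adjusted p = 1.9e-07), and also in βMut2 and βMut-HS3Δ (by 1.02 and 2.13). WT-HS3Δ had 7 higher and 4 lower (33.2% and 36.2%), with SRCAP up by 1.09 ± 0.21 (adjusted p = 0.000154). In αRes4 against αWT 10 were lower and 2 higher (29.2% and 29.2%), led by CHD7 (-1.23 ± 0.10, adjusted p = 3.25e-13).

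Patterns over the 12 line means were shared with many genes. Among 16992 genes tested in both series, those most like SMARCA4 were RPTOR (Pearson's r 0.988, Spearman's rho 0.979), EHMT1 (0.988 and 0.958) and SAP130 (0.986 and 0.888), and those most like EP300 were ZZEF1 (0.997 and 0.979), TICRR (0.996 and 1.0) and YLPM1 (0.996 and 0.993). In all, 433 genes reached an r of 0.9 with SMARCA4 and 539 with EP300. Among the members, r over the lines was highest for ARID1A with EP300 (0.97) and SMARCA4 with ARID1B (0.97), and lowest for SMARCA2 with EP300 (-0.12). The points share their series, and most members are lower in βWT than in αWT, so r describes these 12 means and no test was made.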

How the data were processed

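Poly(A) RNA of K562 lines was sequenced as paired reads of 51 bases. Per the study's methods and the labels, the authors trimmed reads with cutadapt (quality 20), aligned them to hg38 with BWA, used SAMtools 1.15.1 and Picard MarkDuplicates 2.18.7, and counted reads per gene of GENCODE 42 with featureCounts. The strand setting is not given in the sources used here. The deposited values are raw counts per gene and library. Other assays of the series (176 libraries) were not used here.

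Genes with a mean of at least 10 counts were tested with edgeR 4.0.16 (R 4.3.3, TMM scaling, quasi-likelihood test, Benjamini-Hochberg over all genes), 1 fit per series, and 1 of αWT and βWT alone. Past the test means an adjusted p below 0.05, and ± after a log2 change is its SE. CPM were scaled over the 62 libraries, and exon lengths and positions came from GENCODE 44, which matched 62625 of 62696 genes. Where lines share replicate numbers, every pair of same-numbered libraries correlated at 0.1 or more in αRes1 with αWT (0.1 to 0.284) and αRes2 with αMut1 (0.135 to 0.269), from the data alone. With βWT not every pair did, but the highest were larger: βMut1 0.046 to 0.551, βMut2 0.097 to 0.517 and βMut-HS3Δ 0.086 to 0.59. For αRes1 with αMut1 all were negative (-0.46 to -0.223). Blocked on that number, αRes1 against αWT and αRes2 against αMut1 gave 5 and 0 members, against 4 and 0. On simulated data for βMut1 against βWT, 47% of genes given a log2 change of 0.5 and 79% of those given 1 were found. Against αWT these shares were 30% and 80% for αMut2, 51% and 86% for αRes2, and 37% and 70% for βWT. Alternatives were DESeq2 1.42.0, RLE size factors, no filter on low counts, the 2 lines alone, a replicate block, libraries numbered 1 to 4 or 5 to 8 alone, and each library left out. All 9 members were named, and at most 3 genes per list and comparison with the smallest adjusted p past the test. The 9 members and the gene lists (BAF-type subunits, acetyltransferases and partners, remodeler ATPases, cell type markers) were chosen with earlier results of these data known. No 2 libraries were alike within sampling noise (lowest chi-square per gene 1.802). Whether same-line libraries were separate cultures is not stated for all, so their spread may be technical in part.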

Additional observations from a re-analysis of the deposited data

Results flagged for a closer look

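A library was marked where its gap to the nearest other library of its line was large for the whole range of the line (Dixon's test at 95%), and chance alone marks about 1 in 20 groups. Of 99 groups of 4 to 8 libraries, 12 were marked, and 7 of the marks fell on the βWT library numbered 1, whose genes are not independent of each other. In that library the levels were high for SMARCA4 (449.0 CPM), SMARCA2 (72.47 CPM), SMARCC2 (234.3 CPM), ARID1A (230.1 CPM), ARID1B (118.6 CPM), EP300 (71.41 CPM) and CREBBP (80.58 CPM).

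The other marks were scattered. SMARCB1 was low in the αMut2 library numbered 1 (106.7 CPM) and high in the βMut2 library numbered 1 (104.1 CPM), where SMARCC1 was also high (377.4 CPM). ARID1B was high in the βMut1 library numbered 1 (86.7 CPM), and CREBBP was low in the αWT library numbered 8 (88.53 CPM).

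The difference between βMut-HS3Δ and WT-HS3Δ was not the same as that between βMut1 and βWT for SMARCA2, by 0.857 on the log2 scale (edgeR's quasi-likelihood test of the interaction, adjusted p = 0.0143). Without the βWT library numbered 1 it was 0.689, and with libraries numbered 2 to 4 alone 0.704.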

How the results depend on the processing

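Of 77 calls on members, the interaction included, 43 passed under all alternatives tried. Of 2889 recomputed changes, 2650 kept direction and side of the threshold, 108 no longer passed, 125 newly passed and 6 reversed; the cause was not tested. With libraries numbered 5 to 8 alone, the reversals were SMARCA4 in αMut1 against αWT (0.156), SMARCA2 in αRes1 against αWT (0.263) and αMut1 (0.268), SMARCC1 in αRes2 against αWT (0.168) and ARID1A in αRes2 against αMut1 (0.193), and with 1 to 4 alone EP300 in αRes2 against αWT (-0.024). Those of αRes1 and αRes2 in numbers 5 to 8 cannot be told apart from the handling of pseudoautosomal reads.

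Percentages in parentheses here are the shares of all genes higher and lower in the same setting. Members past the test in αMut2 against αWT went from 0 (11.6% and 13%) to 1 with the replicate block (10.2% and 8.73%). They were 2 with these lines alone (15.1% and 14.9%), 3 with numbers 1 to 4 (13.9% and 15.5%) and 1 with DESeq2 (12.1% and 15.3%). In αRes1 against αMut1 they went from 0 (1.57% and 3.48%) to 3 with the replicate block (3.41% and 4.89%). They were 1 with these lines alone (0.5% and 1.65%), 5 with numbers 1 to 4 (26.1% and 28.8%) and 4 with 5 to 8 (24.1% and 22.6%). In αRes2 against αMut1 they went from 0 (8.37% and 10.5%) to 3 (18.0% and 20.7%) and 1 (16.5% and 18.1%) with these sets. The replicate block gave 9 members in βMut1 (31.6% and 29.1%), βMut2 (32.7% and 32.7%) and WT-HS3Δ (37.3% and 39.8%) against βWT. It also gave 9 in βMut-HS3Δ against WT-HS3Δ (25.9% and 26.1%). In these comparisons numbers do not pair libraries by the labels. The interaction gave 2 members with the replicate block (15.9% and 15.2%), 5 with numbers 2 to 4 (14.0% and 19.8%) and 3 without the βWT library numbered 1 (9.97% and 10.9%).

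Leaving out 1 library gave 0 to 1 members in αRes1 against αMut1, 0 to 8 in βMut1 and 4 to 8 in βMut2 against βWT, 1 to 7 in βMut-HS3Δ against WT-HS3Δ, 2 to 8 against βMut1, and 1 to 3 for the interaction. The shares of all genes changed in such settings too. Those beside the lowest counts against βWT, WT-HS3Δ and βMut1 are given in the Results. Of the medians over surrounding genes, recomputed with windows of 2 and 10 Mb, 30 moved by at least 0.1 and 294 by less. Each edited line is a single clone, and single libraries decide several β counts. Changes of 0.5 or less on the log2 scale, and some of 1, can be missed at this depth and spread.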
